A study of Homo sapiens with 4 samples.

Results

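The proteasome is the large protease that breaks down ubiquitin-tagged proteins in every cell, and its genes are described here after VS-5584 in OPM2, a human cell line established from multiple myeloma, a tumour of plasma cells. Genes were taken by symbol, as those named PSMA to PSMG followed by a number together with POMP, ADRM1, SEM1 and NFE2L1, from the probe sets that the array annotation assigns to exactly 1 gene. This gave 51 of the 18377 genes with a probe set of their own. Of these, 49 encode proteasome subunits, assembly factors, regulators or the transcription factor NRF1, and 2 (PSMC3IP and PSME3IP1) share only the letters of the name and are kept apart. The subunit genes PSMC5, PSMD7 and PSMD13 were not analysed here. VS-5584 (SB2343) is a compound that inhibits mTOR and the class I PI3 kinases, which relay growth-factor and nutrient signals. The 2 VS-5584 samples were OPM2 cells given the compound for 24 h, at 123 nM in the sample labels and 125 nM in the study's design text, and the 2 control samples were OPM2 cells given its solvent DMSO for 24 h. All 4 samples came from the same line in serum-containing medium, and total RNA was measured on 1 expression array each. Nothing says whether the 2 biological replicates of a group were grown apart, so p-values measure only the spread between these samples, which may be technical.

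The 20S core is a barrel of alpha rings, which gate the entrance, and beta rings, whose PSMB5, PSMB6 and PSMB7 subunits cut proteins. The 19S cap binds ubiquitin, unfolds the substrate with its ATPases and feeds it into the core. Plasma cells, which fold and discard large amounts of immunoglobulin, depend strongly on this machinery, and proteasome inhibitors that bind PSMB5 are a mainstay of myeloma treatment. NRF1, the product of NFE2L1, is the factor that raises transcription of proteasome genes when the protease is inhibited, by binding antioxidant response elements, and in mouse cells mTOR complex 1 has been described to raise proteasome gene expression through NRF1.

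The deposited values are linear intensities, 1 per probe set and array, and a difference is the mean log2 intensity of the 2 VS-5584 arrays minus that of the 2 control arrays. Array medians over all probe sets ran from 49.3 to 52.5. VS-5584 replicate 2 stood apart, with 1.74 log2 units between its quartiles against 1.93 to 1.95 on the other 3 arrays, and with correlations of 0.980 to 0.985 with them against 0.993 to 0.996 among them. Results are therefore given by array, and the values on VS-5584 replicate 1 are those without it. Of 11 plasma cell markers, 11 lay in the brighter 60% of genes that were tested, against 0 of 5 T cell, 0 of 5 myeloid and 2 of 5 stromal markers (COL1A1 and COL1A2, 48.5 to 84.8). An array measures RNA relative to the total, so a smaller share of cells with a transcript and less of it per cell cannot be told apart.

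Most proteasome genes were lower on the VS-5584 arrays, by modest amounts, and no gene passed the test. Of the 47 proteasome genes bright enough to be tested, 43 were lower on average, against 62.7% of all 11026 tested genes. Both VS-5584 arrays lay below both control arrays for 34 of the 47, against 29.2% of all tested genes, and above them for 2, against 14.7%. The median difference of the 47 was -0.28, or 1.21-fold lower, beside -0.064 for all tested genes. Brighter genes as a whole were lower by more. With the 60% dimmest genes left out, the median of the 7351 remaining genes was -0.13. Of these, 5458 were lower on average and 2696 lay below both controls. The 45 proteasome genes among them had a median of -0.28, with 41 lower on average and 33 below both controls. With limma, 0 of the 47 proteasome genes and 0 of all 11026 tested genes (0.0%) had an adjusted p under 0.05. At an unadjusted p under 0.05, 15 of the 47 were lower, against 8.93% of all tested genes, and 0 were higher, against 1.49%. Differences ran from -0.62 for PSMB6 to 0.22 for PSMB9, and the smallest adjusted p was 0.359, for PSMC6.

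The size of the difference depended on the array. The median of the 47 genes was -0.17 on VS-5584 replicate 1 and -0.39 on VS-5584 replicate 2, beside -0.0022 and -0.14 for all tested genes. Of the 47, 43 were lower on replicate 2 than on replicate 1, as were 7962 of all 11026 tested genes. Without VS-5584 replicate 2, 41 of 47 were lower on average (50.6% of all tested genes) and 35 lay below both controls (34.6%). Control replicate 1 differed from control replicate 2 by a median of -0.016. Cyclic loess, which evens out intensity-dependent differences between arrays, moved the median to -0.17 and left 38 of 47 lower, beside -0.01 and 52.5% for all tested genes, and 26 below both controls (24.4%).

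**Figure D1:**
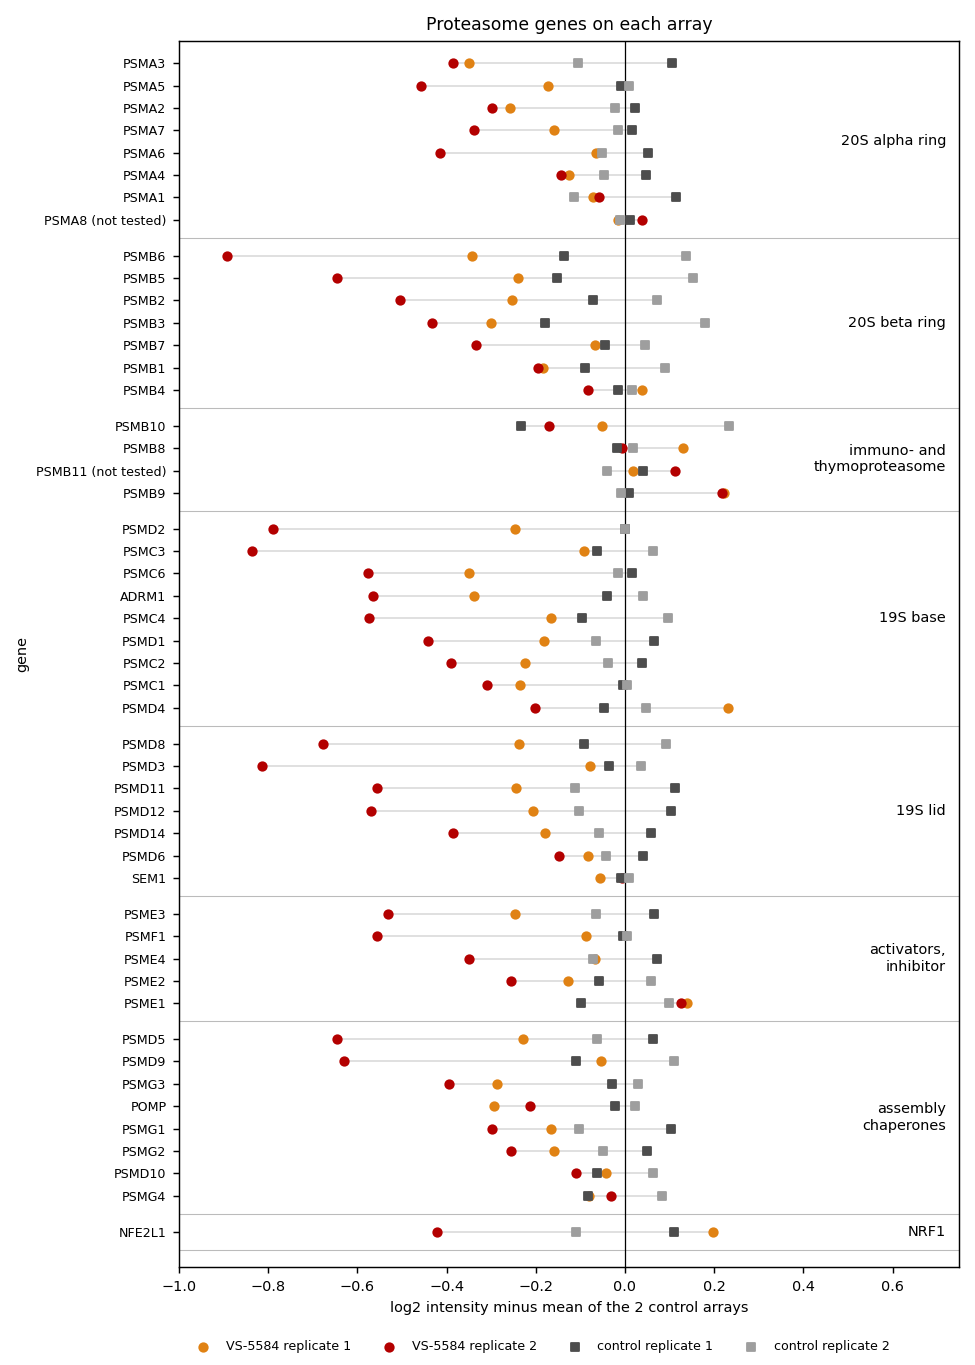
Log2 intensity of each proteasome gene on each array minus the mean of the 2 control arrays (horizontal axis), with genes grouped by class and ordered within a class by their mean difference. Circles are the VS-5584 arrays and squares the control arrays, and the VS-5584 replicate 2 circles reach -0.89 (PSMB6) while those of replicate 1 stay above -0.4.

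**Figure D2:**
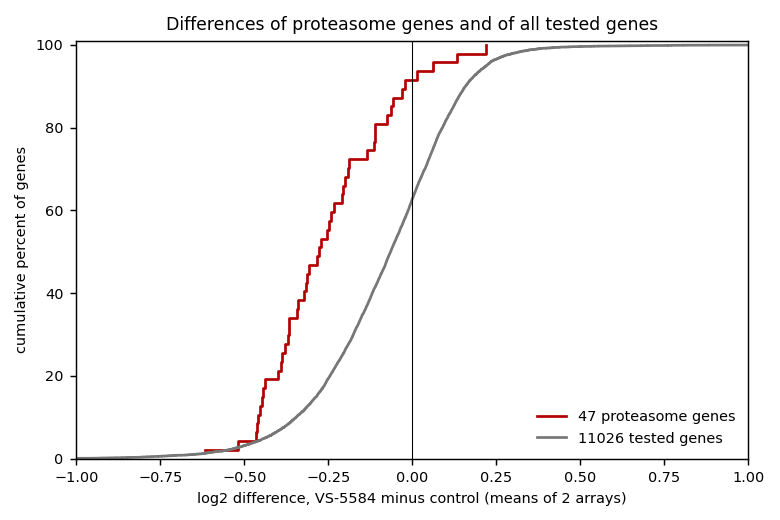
Cumulative percent of genes (vertical axis) by log2 difference between VS-5584 and control means (horizontal axis) for the 47 tested proteasome genes and all 11026 tested genes. The proteasome curve lies to the left, with a median of -0.28 against -0.064.

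In the alpha ring of the 20S core, all 7 tested genes were lower on average (62.7% of all tested genes) and 6 lay below both controls (29.2%), with a median difference of -0.25. PSMA3 had intensities of 453 and 442 on the VS-5584 arrays, against 620.4 and 537 on the control arrays, a difference of -0.37 ± 0.14 (log2, SE, limma adjusted p = 0.426). Both VS-5584 values lie below both controls, and they differ from each other by less than the controls do. PSMA5 stood at 396 and 325 on the VS-5584 arrays, against 443 and 449 on the control arrays (-0.32 ± 0.14, adjusted p = 0.483), lower on both arrays and further on replicate 2. PSMA2, PSMA6 and PSMA7 differed by -0.28, -0.24 and -0.25 and PSMA4 by -0.13, each with both VS-5584 arrays below both controls. PSMA1 overlapped the controls (-0.065, 95% interval -0.38 to 0.25), and its sign turned after cyclic loess. PSMA8, the alpha subunit made in the testis, was too dim to be tested, at 24.4 and 25.3 on VS-5584 against 24.8 and 24.4 on control arrays. The ring's medians on VS-5584 replicates 1 and 2 were -0.16 and -0.34.

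The beta ring held the gene with the lowest difference. All 7 genes were lower on average (62.7% of all tested genes) and 6 lay below both controls (29.2%). The median was -0.37 (-0.24 and -0.43 on VS-5584 replicates 1 and 2). PSMB6, which carries the caspase-like activity, had intensities of 229.5 and 157 on the VS-5584 arrays, against 265 and 320.1 on the control arrays. That is 1.53-fold lower, or -0.62 ± 0.19 on the log2 scale (SE, limma adjusted p = 0.369, 95% interval -1.05 to -0.19), and it was clearly larger on replicate 2. PSMB5, the chymotrypsin-like subunit that proteasome inhibitors bind, stood at 264 and 199 on the VS-5584 arrays, against 280.5 and 346 on the control arrays, a difference of -0.44 ± 0.17 (adjusted p = 0.438). The groups did not overlap, though VS-5584 replicate 1 was close to control replicate 1. PSMB7, the trypsin-like subunit, stood at 1678 and 1395 on the VS-5584 arrays, against 1704 and 1815 on the control arrays (-0.20 ± 0.14), with replicate 1 just under the controls. Among the subunits without a catalytic site, PSMB2, with 778 and 654 on VS-5584 against 883 and 976 on control arrays, and PSMB3 were lower by 23.1% and 22.4%, and PSMB1 differed by -0.19. PSMB4 overlapped the controls, with 3024 and 2781 on VS-5584 against 2911 and 2978 on control arrays (-0.022).

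The immunoproteasome subunits are induced by interferon and take the place of the 3 catalytic beta subunits, chiefly in lymphoid cells. Of the 3 tested, 1 was lower on average (62.7% of all tested genes) and 0 lay below both controls (29.2%). The median was 0.062 (0.13 and -0.0065 on VS-5584 replicates 1 and 2). PSMB9, the counterpart of PSMB6, had intensities of 86 and 85.7 on the VS-5584 arrays, against 74.2 and 73.3 on the control arrays, so both VS-5584 arrays lay above both controls by like amounts (0.22 ± 0.13, limma adjusted p = 0.565). PSMB8, the counterpart of PSMB5, stood at 147 and 133 on the VS-5584 arrays, against 132 and 136 on the control arrays (0.062 ± 0.13), with the second VS-5584 array inside the control range, and its sign turned to -0.0065 without VS-5584 replicate 1. PSMB10, the counterpart of PSMB7, stood at 255 and 235 on the VS-5584 arrays, against 224 and 310.4 on the control arrays (-0.11 ± 0.17). Both VS-5584 values lay between the controls, whose own difference (replicate 1 minus replicate 2) was -0.47. After cyclic loess and quantile normalization the difference was above 0. PSMB11, the thymus-specific subunit, was too dim to be tested at 26.7 and 28.4 on VS-5584 against 27.1 and 25.6 on control arrays.

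Set against its counterpart within each array, the ratio of PSMB9 to PSMB6 was higher by 0.84 (log2) on the VS-5584 arrays than on the controls, a 1.79-fold change in ratio. On VS-5584 replicates 1 and 2 it stood 0.57 and 1.11 above the control mean, with the 2 controls 0.15 to either side of it. The ratio of PSMB8 to PSMB5 was higher by 0.51, with no overlap, and that of PSMB10 to PSMB7 by 0.09, with overlap. Two-sided exact permutation tests gave p = 0.333, 0.333 and 1.0 for these ratios (0.556, 0.556 and 1.0 after Benjamini-Hochberg adjustment over 5 pairs), and 0.333 is the smallest value that 2 arrays against 2 allow.

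**Figure D3:**
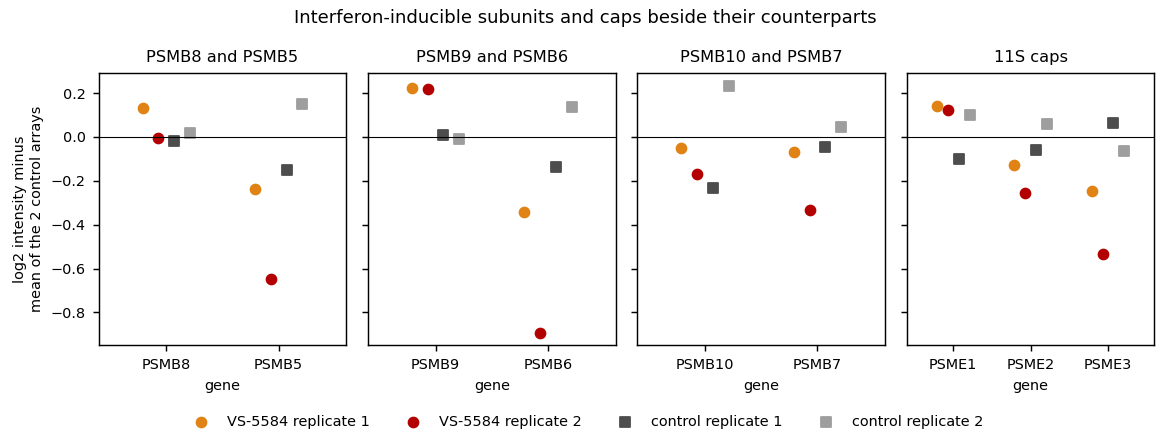
Log2 intensity minus the mean of the 2 control arrays (vertical axis) for the immunoproteasome subunits PSMB8, PSMB9 and PSMB10 beside PSMB5, PSMB6 and PSMB7, and for the cap genes PSME1, PSME2 and PSME3. Circles are VS-5584 and squares control arrays; both VS-5584 arrays lie above both controls for PSMB9 and PSME1 and below both for PSMB5, PSMB6, PSMB7, PSME2 and PSME3.

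Genes of the 19S cap had the lowest medians together with the beta ring. In the base, which holds the ATPases and the large scaffold subunits, 8 of 9 genes were lower on average (62.7% of all tested genes). The same number lay below both controls (29.2%), with a median of -0.37 (-0.22 and -0.57 on VS-5584 replicates 1 and 2). PSMC6, an ATPase of the unfolding ring, had intensities of 773 and 661 on the VS-5584 arrays, against 996 and 975 on the control arrays, 1.38-fold lower (-0.46 ± 0.14 log2, SE, limma adjusted p = 0.359). Both VS-5584 arrays were well below the closely spaced controls. PSMC6 and PSMC1 each have 2 probe sets under the same annotation, and whether one of them reads a near-identical copy elsewhere in the genome was not tested, so their values are uncertain in that respect. The other ATPase genes, PSMC1, PSMC2, PSMC3 and PSMC4, differed by -0.27, -0.31, -0.46 and -0.37, all below both controls, and for PSMC3 the array values were 691 and 413 on VS-5584 against 706 and 769.9 on control arrays, so that nearly all of the difference lay on replicate 2.

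ADRM1, a ubiquitin receptor of the base, stood at 265 and 227 on the VS-5584 arrays, against 327 and 345 on the control arrays (-0.45 ± 0.14, adjusted p = 0.369), lower on both arrays. PSMD4, another ubiquitin receptor of the base, stood at 256 and 189.8 on the VS-5584 arrays, against 211 and 226 on the control arrays. It was thus above both controls on replicate 1 and below both on replicate 2 (0.015 ± 0.16, 95% interval -0.35 to 0.38), and its sign turned negative with median centring. The scaffold subunit PSMD2 stood at 236 and 163 on the VS-5584 arrays, against 281 and 281 on the control arrays (-0.52 ± 0.18, adjusted p = 0.401), where the 2 controls were nearly equal. PSMD1, the other scaffold, differed by -0.31 and also lay below both controls.

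In the lid, which removes ubiquitin from the substrate, all 7 genes were lower on average (62.7% of all tested genes) and 6 lay below both controls (29.2%). The median was -0.39 (-0.18 and -0.56 on VS-5584 replicates 1 and 2). PSMD14, the deubiquitinase of the lid, had intensities of 789.6 and 685 on the VS-5584 arrays, against 931 and 859 on the control arrays (-0.28 ± 0.14, limma adjusted p = 0.517). The structural subunit PSMD8 stood at 484 and 357 on the VS-5584 arrays, against 535 and 608 on the control arrays (-0.46 ± 0.17, adjusted p = 0.424), and PSMD11, which clamps the lid to the core, at 1097 and 884 on the VS-5584 arrays, against 1405 and 1202 on the control arrays (-0.40 ± 0.16, adjusted p = 0.437). For all 3 the VS-5584 arrays lay below both controls. PSMD12, PSMD3 and PSMD6 differed by -0.39, -0.45 and -0.11 without overlap, and the PSMD3 difference was -0.078 on replicate 1 and -0.81 on replicate 2. SEM1, the small lid subunit, overlapped the controls (1446 and 1495 on VS-5584 against 1495 and 1511 on control arrays), and its difference of -0.032 turned positive after cyclic loess.

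The alternative caps and the inhibitor were mixed. PSME1 and PSME2 encode the interferon-inducible 11S ring of antigen-presenting cells, and PSME3 its nuclear relative. PSME1 had intensities of 436 and 432 on the VS-5584 arrays, against 369.7 and 424 on the control arrays (0.13 ± 0.14, limma adjusted p = 0.738), above both controls, but by little over control replicate 2. PSME2 stood at 284 and 260.5 on the VS-5584 arrays, against 299 and 324 on the control arrays (-0.19 ± 0.13, adjusted p = 0.627), below both controls. PSME3 stood at 554 and 455 on the VS-5584 arrays, against 687 and 629 on the control arrays (-0.39 ± 0.15, adjusted p = 0.426), lower on both arrays. Within arrays, the ratio of PSME1 to PSME3 was higher by 0.52 on the VS-5584 arrays (exact permutation p = 0.333, the smallest possible, adjusted 0.556) and that of PSME2 to PSME3 by 0.20 (0.667, adjusted 0.833). PSMF1, an inhibitor of the 20S core in vitro, stood at 253 and 183 on the VS-5584 arrays, against 268 and 269.6 on the control arrays (-0.32 ± 0.17), with most of the difference on replicate 2. PSME4, a large single-chain cap, differed by -0.21 and overlapped the controls narrowly (372 and 306 on VS-5584 against 409 and 371 on control arrays).

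Assembly factors were lower by about as much as the alpha ring, with 8 of 8 lower on average (62.7% of all tested genes) and 5 below both controls (29.2%). Their median was -0.24 (-0.16 and -0.28 on VS-5584 replicates 1 and 2). POMP, which guides beta ring assembly, had intensities of 1119 and 1185 on the VS-5584 arrays, against 1352 and 1394 on the control arrays (-0.25 ± 0.13, limma adjusted p = 0.530); it was 1 of 4 tested members lower on replicate 1 than on replicate 2. PSMG1, part of the pair that starts the alpha ring, stood at 337 and 308 on the VS-5584 arrays, against 407 and 352 on the control arrays (-0.23 ± 0.14), and its partner PSMG2 differed by -0.21. PSMG3, of the second such pair, stood at 55.3 and 51.2 on the VS-5584 arrays, against 66.1 and 68.7 on the control arrays (-0.34 ± 0.13, adjusted p = 0.432), while its partner PSMG4 overlapped the controls (-0.057). Among the chaperones of the 19S base, PSMD5 stood at 213 and 159.7 on the VS-5584 arrays, against 261 and 239 on the control arrays (-0.44 ± 0.16, adjusted p = 0.426), with no overlap. PSMD9 and PSMD10 differed by -0.34 and -0.076 and overlapped the controls.

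NFE2L1 itself differed in direction between the VS-5584 arrays. It had intensities of 142 and 92.2 on the VS-5584 arrays, against 133 and 114 on the control arrays, so that it was above both controls on replicate 1 and below both on replicate 2 (-0.11 ± 0.20, limma adjusted p = 0.856, 95% interval -0.56 to 0.33). Relative to the control mean, NFE2L1 stood at 0.20 on replicate 1 and at -0.42 on replicate 2. The 47 genes, NFE2L1 among them, had medians of -0.17 and -0.39 on these arrays. Whether the 2 go together was not tested. NRF1 is controlled largely at the protein level, by release from the endoplasmic reticulum and cleavage, which an array does not measure. Of 14 tested genes of NRF1 processing and its partners, 9 were lower on average, against 62.7% of all tested genes, and 3 lay below both controls, against 29.2%, shares near or under those of all genes. Their median was -0.10, with 0.031 on VS-5584 replicate 1 (3 of 14 lower) and -0.18 on replicate 2 (12 of 14 lower), and 0 passed with limma at an adjusted p under 0.05. The medians of all tested genes were -0.0022 on replicate 1 (5578 of 11026 lower) and -0.14 on replicate 2 (7432 of 11026 lower). UFD1, a cofactor of the p97 segregase VCP that extracts proteins from the membrane, stood at 759 and 579 on the VS-5584 arrays, against 907 and 987 on the control arrays (-0.51 ± 0.16, adjusted p = 0.369), and HCFC1, a chromatin cofactor that works with OGT, differed by -0.44 ± 0.17 (adjusted p = 0.426). OGT, the O-GlcNAc transferase, was chosen after its values were seen and differed by 0.33 ± 0.13. VCP differed by -0.26, with 731 and 505 on VS-5584 against 755 and 703 on control arrays, and the related factor NFE2L2 by -0.14. AKIRIN2, which carries proteasomes into the nucleus, differed by -0.036.

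Genes that supply ubiquitin or work bound to the proteasome were also mostly lower, with 18 of 19 tested genes lower on average, against 62.7% of all tested genes, and 12 below both controls, against 29.2%. Their median was -0.20, with -0.14 on VS-5584 replicate 1 (14 of 19 lower) and -0.27 on replicate 2 (18 of 19 lower). Beside this, the medians of all tested genes were -0.0022 (5578 of 11026 lower) and -0.14 (7432 of 11026 lower). None of the 19 passed with limma over all genes, and 2 were lower at an unadjusted p under 0.05, a share near the 8.93% of all tested genes. These were PITHD1, a proteasome-binding protein, with 148 and 109 on the VS-5584 arrays, against 172 and 176 on the control arrays (-0.45 ± 0.16, adjusted p = 0.417), and UBE3C, a ubiquitin ligase of the proteasome, with 195 and 145 on the VS-5584 arrays, against 222 and 231 on the control arrays (-0.43 ± 0.16, adjusted p = 0.426). The deubiquitinases of the cap, USP14 and UCHL5, differed by -0.20 and -0.22, each below both controls, and PAAF1, a chaperone-like binder of the ATPases, by -0.10 with overlap. UBB, a polyubiquitin gene, was the 1 gene of this list that was higher on average, by 0.031, within the spread of the controls (692 and 697 on VS-5584 against 597 and 773 on control arrays).

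Of the companions of the immunoproteasome in antigen presentation, 5 of 8 were bright enough to be tested and their median was -0.014, with opposite signs on VS-5584 replicate 1 (0.11, 1 of 5 lower) and replicate 2 (-0.071, 4 of 5 lower). All tested genes were also lower on replicate 2, with medians of -0.0022 on replicate 1 (5578 of 11026 lower) and -0.14 on replicate 2 (7432 of 11026 lower). TAPBP, which loads peptide onto MHC class I, stood at 138 and 170.4 on the VS-5584 arrays, against 116 and 127 on the control arrays (0.34 ± 0.15, limma adjusted p = 0.476), above both controls. ERAP1, an aminopeptidase that trims peptides, differed by -0.076 ± 0.16 (adjusted p = 0.871) with overlap. TAP1 and TAP2, the peptide transporter, and IRF1, an activator of these genes that interferon induces, were added after their values were seen. TAP1 and TAP2 differed by 0.062 and -0.061 with overlap, and IRF1 was too dim to be tested (45.6 and 42.3 on VS-5584 against 40.5 and 39.8 on control arrays).

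Promoter windows were read for 43 of the 49 genes (not for PSMA7, PSMB1, PSMB6, PSMB7, PSMD4 and PSMG3), as the 250 bases before each transcript start annotated by RefSeq (GRCh38.p14). The antioxidant response element core that NRF1 binds, searched as TGACNNNGC on both strands, was present in 14 of the 43. It was present in 15.9% of 8881 tested genes with such a window and 13.2% of all 27305 genes with one. The 14 are 4 of 7 assembly factors, 3 of 7 lid genes, 3 of 5 activator and inhibitor genes, and 1 gene each of the base, the alpha ring, the beta ring and the immunoproteasome. Tested members with the motif had a median difference of -0.22 (from -0.45 to 0.22) and the 27 without it one of -0.31 (from -0.52 to 0.062). The CCAAT box, searched as CCAAT on both strands, was in 20 of 43, against 41.5% of tested genes and 37.0% of all genes. The core of an interferon response element, searched as GAAANNGAA on both strands, was in 6 of 43 (POMP, PSMA4, PSMB4, PSMB10, PSME2 and PSMG4). It was in 6.89% of tested genes and 8.4% of all genes. A gene counts once where any of its windows holds the letters, and matches of different motifs overlapped in 0 of the 55 windows of these genes. No test was made of these shares, and a match is not a binding site.

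The windows of 6 genes with the antioxidant response element are shown 5′ to 3′ on the strand of the gene, with the element in capitals, 4 from genes lower on both VS-5584 arrays and 2 (PSMB9 and PSME1) from the genes that were higher on both.
ADRM1, chr20:62302646-62302895, forward strand: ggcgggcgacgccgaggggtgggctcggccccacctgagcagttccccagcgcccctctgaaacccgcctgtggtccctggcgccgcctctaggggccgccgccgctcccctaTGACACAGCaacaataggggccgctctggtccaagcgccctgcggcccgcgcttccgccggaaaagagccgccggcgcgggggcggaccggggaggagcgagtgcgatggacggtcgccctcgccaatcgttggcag
PSMD5, chr9:120842923-120843172, reverse strand: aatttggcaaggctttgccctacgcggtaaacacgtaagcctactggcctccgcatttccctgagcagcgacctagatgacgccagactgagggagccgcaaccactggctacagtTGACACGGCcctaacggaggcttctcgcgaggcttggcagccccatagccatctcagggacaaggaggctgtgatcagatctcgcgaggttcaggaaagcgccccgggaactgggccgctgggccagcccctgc
PSMD12, chr17:67366578-67366827, reverse strand: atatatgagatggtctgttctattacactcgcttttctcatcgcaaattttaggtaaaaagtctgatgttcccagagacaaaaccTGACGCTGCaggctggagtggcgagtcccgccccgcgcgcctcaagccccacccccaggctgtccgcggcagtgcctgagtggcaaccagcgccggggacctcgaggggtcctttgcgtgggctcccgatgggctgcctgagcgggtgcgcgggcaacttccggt
PSMB3, chr17:38752491-38752740, forward strand: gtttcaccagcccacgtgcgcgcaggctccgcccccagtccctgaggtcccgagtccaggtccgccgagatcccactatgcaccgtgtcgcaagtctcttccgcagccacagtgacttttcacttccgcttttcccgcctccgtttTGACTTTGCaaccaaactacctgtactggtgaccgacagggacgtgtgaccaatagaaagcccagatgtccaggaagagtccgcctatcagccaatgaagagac
PSMB9, chr6:32853942-32854191, forward strand: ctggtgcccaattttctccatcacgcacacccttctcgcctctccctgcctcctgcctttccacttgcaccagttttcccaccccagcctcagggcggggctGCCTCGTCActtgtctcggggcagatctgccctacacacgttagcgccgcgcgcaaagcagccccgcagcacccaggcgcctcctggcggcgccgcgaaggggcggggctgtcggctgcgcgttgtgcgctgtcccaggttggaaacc
PSME1, chr14:24135944-24136193, forward strand: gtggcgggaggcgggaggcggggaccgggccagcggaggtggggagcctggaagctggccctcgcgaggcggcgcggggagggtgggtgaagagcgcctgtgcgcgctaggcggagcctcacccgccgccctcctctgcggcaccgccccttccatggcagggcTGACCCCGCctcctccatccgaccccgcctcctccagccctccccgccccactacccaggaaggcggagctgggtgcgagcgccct
Of the genes shown, ADRM1 differed by -0.45, PSMB3 by -0.37, PSMB9 by 0.22 and PSME1 by 0.13. Whether the element goes with the difference was not tested.

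The windows of PSMB10 and PSME2, 2 interferon-inducible genes, are shown in the same way for the interferon response element, in capitals.
PSMB10, chr16:67936851-67937100, reverse strand: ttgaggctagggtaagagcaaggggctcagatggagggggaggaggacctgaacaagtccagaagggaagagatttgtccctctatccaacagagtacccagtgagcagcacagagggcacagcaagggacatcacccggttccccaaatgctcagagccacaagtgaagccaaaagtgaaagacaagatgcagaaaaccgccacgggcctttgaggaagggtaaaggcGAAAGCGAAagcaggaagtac
PSME2, chr14:24146611-24146860, reverse strand: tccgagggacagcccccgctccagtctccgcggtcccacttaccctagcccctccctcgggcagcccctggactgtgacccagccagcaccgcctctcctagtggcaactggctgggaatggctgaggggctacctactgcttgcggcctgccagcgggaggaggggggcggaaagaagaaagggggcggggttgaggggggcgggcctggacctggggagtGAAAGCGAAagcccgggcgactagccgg
PSMB10 overlapped the controls and PSME2 lay below both, while PSMB9, whose window lacks these letters, lay above both. Whether these letters go with the difference was not tested.

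**Figure D4:**
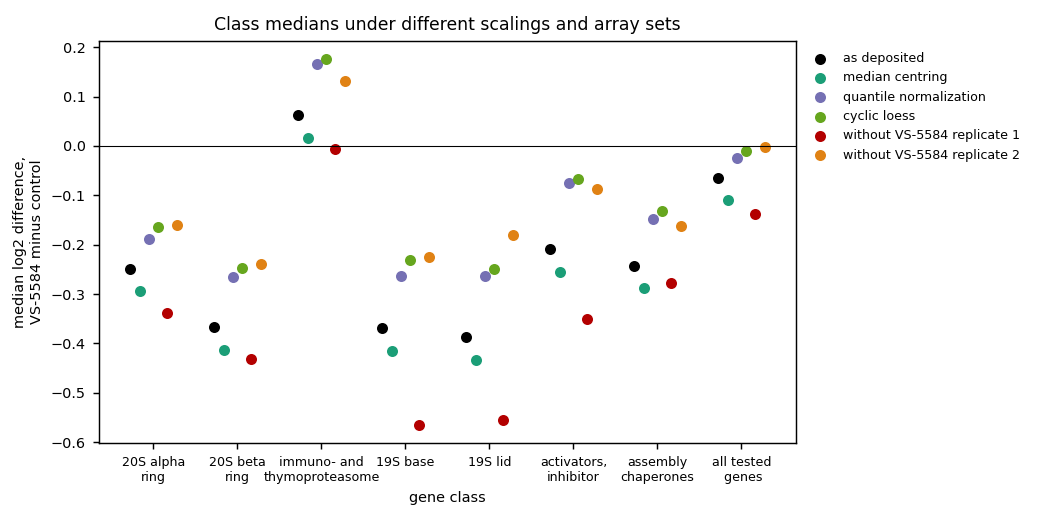
Median log2 difference between VS-5584 and control (vertical axis) for each class of proteasome genes and for all tested genes (horizontal axis), as deposited, under 3 other scalings, and without each VS-5584 array. The medians of the 20S rings, base, lid, activators and assembly factors lie below 0 in all 6, those of base and lid reach -0.57 and -0.56 without replicate 1, and the immunoproteasome median runs from -0.0065 to 0.18.

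The class with the lowest median was the lid as deposited and the beta ring without VS-5584 replicate 2 (-0.24). After cyclic loess the medians were -0.16 for the alpha ring, -0.25 for the beta ring, -0.23 for the base, -0.25 for the lid, -0.067 for activators and inhibitor and -0.13 for assembly factors. The immunoproteasome genes then had a median of 0.18, with all 3 tested genes above 0.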

How the data were processed

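Biotin-labelled cDNA was made from total RNA, per the labels' protocols. The authors deposited 1 intensity per probe set and array (28869 probe sets), made with RMA per the submitters' processing notes, which give no version. The intensities are linear and not equally distributed across arrays; the step from RMA to them, the background correction and any added constant, which would make differences of dim genes too small, are not given in the sources used here. No probe set could be called above background. With 2 arrays a group, precision is limited by their number.

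Intensities were turned into log2 values without further normalization. Of the probe sets, 19310 carried 1 gene in the platform annotation, 1752 several and 7807 none listed; 19279 matched RefSeq (GRCh38.p14) by gene ID, which gave the symbols. The probe set with the highest mean stood for a gene, and the 40% of 18377 genes with the lowest mean (below an intensity of 48.9) were left out, among them PSMA8 and PSMB11. The other 11026 were fitted in R 4.3.3 by lmFit and eBayes of limma 3.58.1 (two-sided, Benjamini-Hochberg over all tested genes, threshold 0.05). The SE and 95% interval are this model's. The main fit does not use the replicate number. Members, classes and lists were chosen with earlier results of these data known, so their counts and medians are descriptions without a test. Values on every array are given for the 2 genes of each class with the smallest p, for genes of fixed interest, for those higher on average, and for some others chosen after their values were seen; of each related list the 2 genes with the smallest p and 8 fixed genes are named, apart from 1 that is not reported here. Figures were drawn with matplotlib 3.10.9.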

Additional observations from a re-analysis of the deposited data

How the results depend on the processing

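Over 13 alternatives, the median difference of the proteasome genes stayed below 0, as did that of all tested genes. The proteasome median minus that of all tested genes ran from -0.27 with no genes left out to -0.15 with 60% left out. The counts of proteasome genes lower on average and below both controls kept within 1.5 times the main count. Several of these alternatives leave each gene's difference as it is and so could not turn its sign. They are the replicate number as a block, the intensity trend and the fits with no or 60% of genes left out. Averaging the probe sets of a gene changes the difference of PSMC1 and PSMC6 only. Outside the fits that leave out an array, members passed the adjusted threshold only with the replicate number as a block, namely PSMB6 and PSMD2 (2 of 47, with 432 of 11026 genes). The labels do not say that the number marks a shared culture or day, so this block is not taken as a pairing. The deviations of same-numbered arrays correlated at r = 0.16, which cannot decide this, since VS-5584 replicate 2 stood apart in its spread of values. All genes past the threshold numbered 16 after cyclic loess, 2 after quantile normalization, 58 with 60% of genes left out, 80 with an intensity trend and 2 with 16 subtracted, none of them proteasome genes. Leaving out 1 array gave 2 to 2636 genes and 0 to 23 members, the highest of both without VS-5584 replicate 1 and the lowest of the gene counts without VS-5584 replicate 2; the remaining array is then assumed to vary like the others. Of 609 values for 47 members, 17 turned sign, in 9 members whose difference was small. All 17 came from another normalization or from leaving out an array. PSMD4 turned to -0.031 with median centring. After cyclic loess PSMA1, PSMB10, PSMB4, PSMD10 and SEM1 stood at 0.025, 0.031, 0.014, 0.060 and 0.046, and after quantile normalization PSMA1, PSMB10 and PSMD10 at 0.0091, 0.011 and 0.037. Leaving out each array in turn gave ranges of -0.18 to 0.050 for PSMA1, -0.35 to 0.12 for PSMB10, -0.14 to 0.027 for PSMG4, -0.0065 to 0.13 for PSMB8, -0.42 to 0.20 for NFE2L1, -0.083 to 0.038 for PSMB4 and -0.20 to 0.23 for PSMD4. The VS-5584 arrays set both ends for the last 4 of these and the controls for the first 3. Without VS-5584 replicate 2, the difference of 27 of 47 members moved by over 1.5 times or turned sign. The cause was not tested.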

Other observations

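2 genes share only the letters of the name. PSMC3IP, which takes part in meiotic recombination, stood at 206 and 119 on the VS-5584 arrays, against 281 and 245 on the control arrays (-0.75 ± 0.23 log2, SE, limma adjusted p = 0.369), below both controls. It passed the threshold with the replicate number as a block (adjusted p = 0.00057) and without VS-5584 replicate 1 (-1.15, adjusted p = 0.00072), and without VS-5584 replicate 2 its difference was -0.35, as for PSMC6. PSME3IP1, a binding partner of PSME3, stood at 468 and 387 on the VS-5584 arrays, against 511 and 399 on the control arrays (-0.085 ± 0.17), with overlap.

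Several probe sets were present for 4 members. The second probe set of PSMC6 differed by -0.42, against -0.46 for the one used, and that of PSMC1 by -0.27, as did the one used. The 3 probe sets of PSMB8, and likewise the 3 of PSMB9, hold identical values and count as 1 measurement.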
